A study of Mus musculus with 4 samples.

Results

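Collagen chains are the subject here: the 44 genes of the 43346 in the deposited count table whose name is Col, a number, the letter a and a number. The rule that picks them uses the name alone, though it was set with earlier results of these data known. They were kept apart as 11 fibrillar genes, 10 basement membrane genes (the type IV chains with types VII, XV, XVII and XVIII) and 23 others. The RNA was polyadenylated RNA that the sample labels assign to lung epithelial cells of mice, whereas the series title names lung tissue. There were 2 libraries, B and E, from mice with the genotype label IL-33 over-expression (transgenic), and 2 libraries, D and F, from mice with the genotype label control (control). IL-33 is a cytokine that epithelial cells release on damage. The treatment field of all 4 samples, controls included, names the transgenic mice. The promoter of the transgene, the strain, age and number of mice per library were not given in the labels or notes used here. The p-values therefore measure the spread between these libraries, which may be technical.

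Collagens are built from 3 chains that wind into a triple helix, and each gene encodes 1 chain. The fibrillar types form the cables that give the airway wall, vessels and pleura their tensile strength, with types I and III made mainly by fibroblasts and smooth muscle. Type IV forms the sheet-like network of basement membranes: chains 1 and 2 assemble together in nearly all of them, whereas chains 3, 4 and 5 make a second network, which in the lung lies under alveolar epithelium and is made by alveolar type 1 cells. The remaining types link fibrils, anchor cells or sit in the cell membrane.

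The type IV genes lie head to head in pairs, which is why the stretches between or before their starts are shown ahead of their values. Col4a1 and Col4a2 on chromosome 8 overlap by 22 bases at their starts, Col4a4 and Col4a3 on chromosome 1 are 71 bases apart, and Col4a6 and Col4a5 on the X chromosome are 1308 bases apart. Col3a1 and Col1a2, 2 fibrillar genes with the same order of libraries, are shown for contrast. All are RefSeq sequence of GRCm38.p6, written 5′ to 3′ on the strand of the gene named. Capitals mark the motifs GGGCGG and TATAAA, the first of which reads as CCGCCC where it lies on the other strand. The motif CCAAT was searched on both strands too and is in none of the stretches shown. In the full 250 bases before their starts, Col1a2, Col4a1 and Col4a2 held 1 CCAAT each, outside the stretches shown. The first stretch, chr8:11312805-11312826, is the overlap and lies in exons of both genes. The others hold no annotated exon of GENCODE M21: the gap chr1:82586850-82586920, the 250 bases before Col4a6 at chrX:141474077-141474326, the 250 bases before Col3a1 at chr1:45311288-45311537, and the exon-free part of the 250 bases before the RefSeq start of Col1a2 at chr6:4505370-4505492, which lies inside the wider span that GENCODE gives the gene.
Col4a1 and Col4a2 overlap (minus strand): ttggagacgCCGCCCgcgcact
Col4a4 to Col4a3 gap (minus strand): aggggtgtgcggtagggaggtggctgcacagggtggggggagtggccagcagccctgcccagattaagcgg
Col4a6 (minus strand): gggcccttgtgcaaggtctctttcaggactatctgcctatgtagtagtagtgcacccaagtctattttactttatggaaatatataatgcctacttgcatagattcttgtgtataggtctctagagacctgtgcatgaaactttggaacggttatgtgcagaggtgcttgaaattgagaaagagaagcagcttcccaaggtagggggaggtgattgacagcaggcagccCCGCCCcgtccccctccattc
Col3a1 (plus strand): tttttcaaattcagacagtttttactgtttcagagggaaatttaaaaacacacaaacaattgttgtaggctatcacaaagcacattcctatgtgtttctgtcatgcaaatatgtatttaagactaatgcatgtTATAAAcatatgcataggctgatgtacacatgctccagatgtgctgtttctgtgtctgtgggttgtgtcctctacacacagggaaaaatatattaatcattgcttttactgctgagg
Col1a2 (plus strand): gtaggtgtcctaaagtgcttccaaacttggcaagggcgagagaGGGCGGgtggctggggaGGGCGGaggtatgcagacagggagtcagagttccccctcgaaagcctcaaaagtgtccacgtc
GGGCGG was in 21 of the 35 collagen windows of 250 bases that matched by symbol, 60%, and in 32.9% of the 27018 windows of all genes. CCAAT was in 34.3% of the collagen windows and 34.5% of all, and TATAAA in 14.3% and 13.0%. These are descriptions of letters. They show no binding. The Col3a1 stretch held 35.2% G and C and that of Col4a6 47.6%.

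Library totals ran from 76120696 counts in B to 87723745 in E. Il33 stood at 1723 CPM (counts per 1000000, library sizes scaled by the trimmed mean of M values) in B and 874 in E, against 117 in D and 108 in F, as the labels say. Its log2 fold change of 3.53 (SE 0.37) had an adjusted p of 1 (edgeR), so the test with 2 libraries a group did not call the transgene's own gene. The labelled cell type was checked against marker genes. Sftpc, the surfactant gene of alveolar type 2 cells, stood between 20036 and 36323 CPM, but the endothelial adhesion gene Pecam1 stood between 824 and 1327 CPM and the smooth muscle actin gene Acta2 between 275 and 526 CPM, so the libraries held RNA of vessels and muscle too. In such bulk RNA, fewer cells of a type and less RNA per cell cannot be told apart. The Y-linked genes of B, E and F summed to 0.551%, 9.11% and 47.5% of their level in D, so male RNA differed between libraries of 1 genotype. It also parted the genotypes, at 1.42 and 23.5 CPM in transgenic B and E and 258 and 122 CPM in control D and F. Each value of transgenic against control therefore also sets libraries with little male RNA against libraries with more. The part of male RNA in the results was not tested beyond a fit with it as covariate.

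No collagen gene passed the test of transgenic against control libraries. Of the 44, 43 had enough counts to be tested, and 0 passed an adjusted p of 0.05 (edgeR quasi-likelihood test over 20872 genes, of which 0%, 0 genes, were called). At an unadjusted p under 0.05 there were 0 members by edgeR, 0 by DESeq2 and 0 by limma-voom, the smallest edgeR p being 0.154, for Col17a1. The adjusted p was 1 for each member. Log2 fold changes, written throughout as transgenic against control, were above 0 for 16 members and below 0 for 27, with a median of -0.13, beside -0.00128 over all genes tested. The share below 0 was 62.8% of the members and 50.4% of all genes tested. All 43 intervals of 95% held 0, and many were wide: that of Col1a1 ran from -1.67 to 0.84, so a level in transgenic mice 2-fold below that of controls lies inside it.

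The 2 transgenic libraries exceeded both controls in 0 of the 43 members, where 11.9% of all genes did, and fell short of both in 3, which is 6.98%, where 12% of all genes did. The 3 were Col5a3, Col13a1 and Col17a1. In 41 of the 43, 95.3%, the wider of the 2 gaps between libraries of 1 genotype exceeded the difference between the genotypes on the scale log2(CPM + 0.5). The same held for 86.2% of all genes tested.

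**Figure D1:**
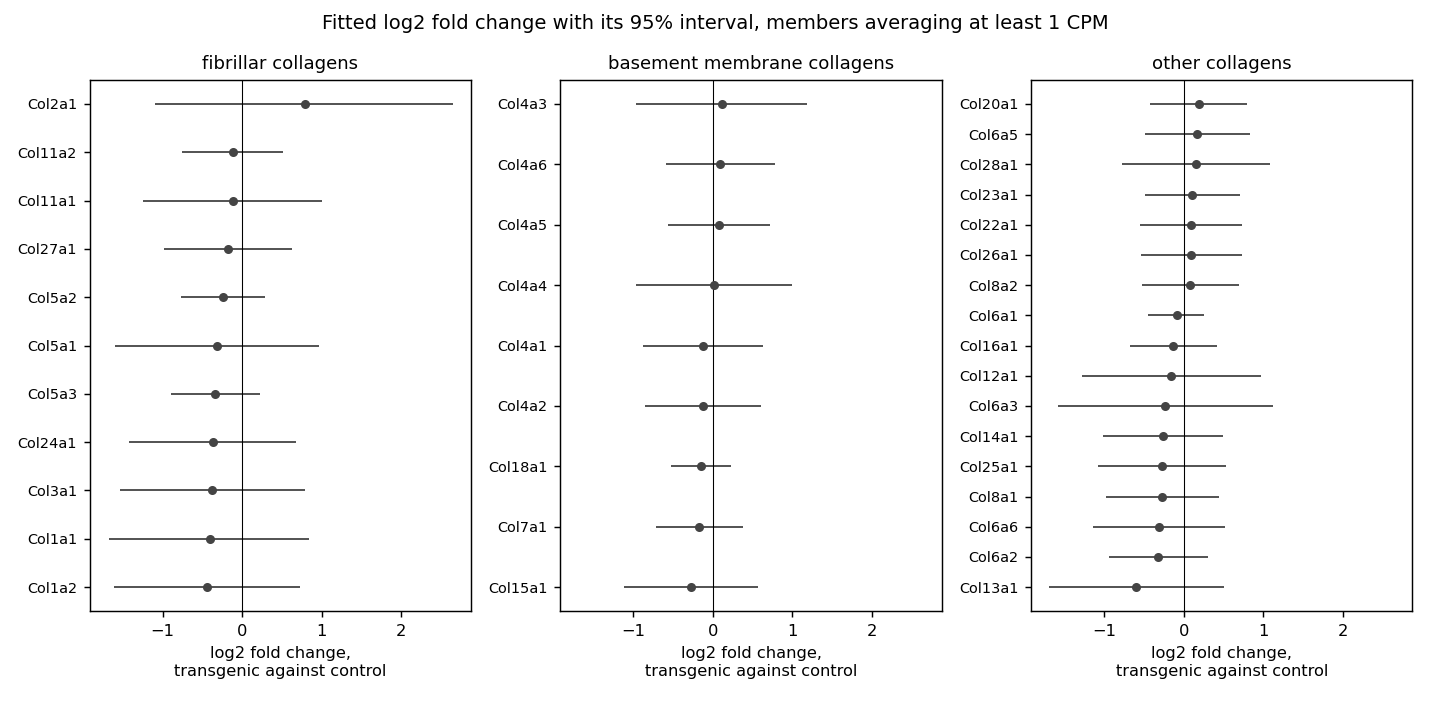
Log2 fold change of transgenic against control libraries (x axis) with its 95% interval for each collagen gene averaging at least 1 CPM, in 3 panels by class. Every interval crosses 0, and the point of Col1a2 at -0.44 is the lowest of the abundant fibrillar genes.

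Type IV chains 1 and 2 dominated the collagen RNA. All collagen genes together took 0.886% and 1.12% of the counts in B and D, and 1.39% and 1.41% in E and F. Per kilobase of the deposited gene length, which allows levels to be set side by side, Col4a1 averaged 701 CPM per kilobase and Col4a2 452. The next were Col3a1 at 86.3, Col6a1 at 77.5, Col1a1 at 58.0, Col1a2 at 48.0 and Col4a5 at 33.6 CPM per kilobase. Col3a1, from 46.1 in B to 122 in F, and Col6a1, from 69.7 to 83.8, overlapped, so their order is not beyond the spread between libraries. Nor is that of the genes after them: in B, Col4a5 at 41.0 lay above Col1a1 at 27.6 and Col1a2 at 24.2. Both Col4a1 and Col4a2 lay above every other member in every library, at no less than 341 CPM per kilobase. These 2 chains made up 67.8% to 69.7% of the per-length collagen level in each of the 4 libraries, a share that hardly moved although the total did.

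**Figure D2:**
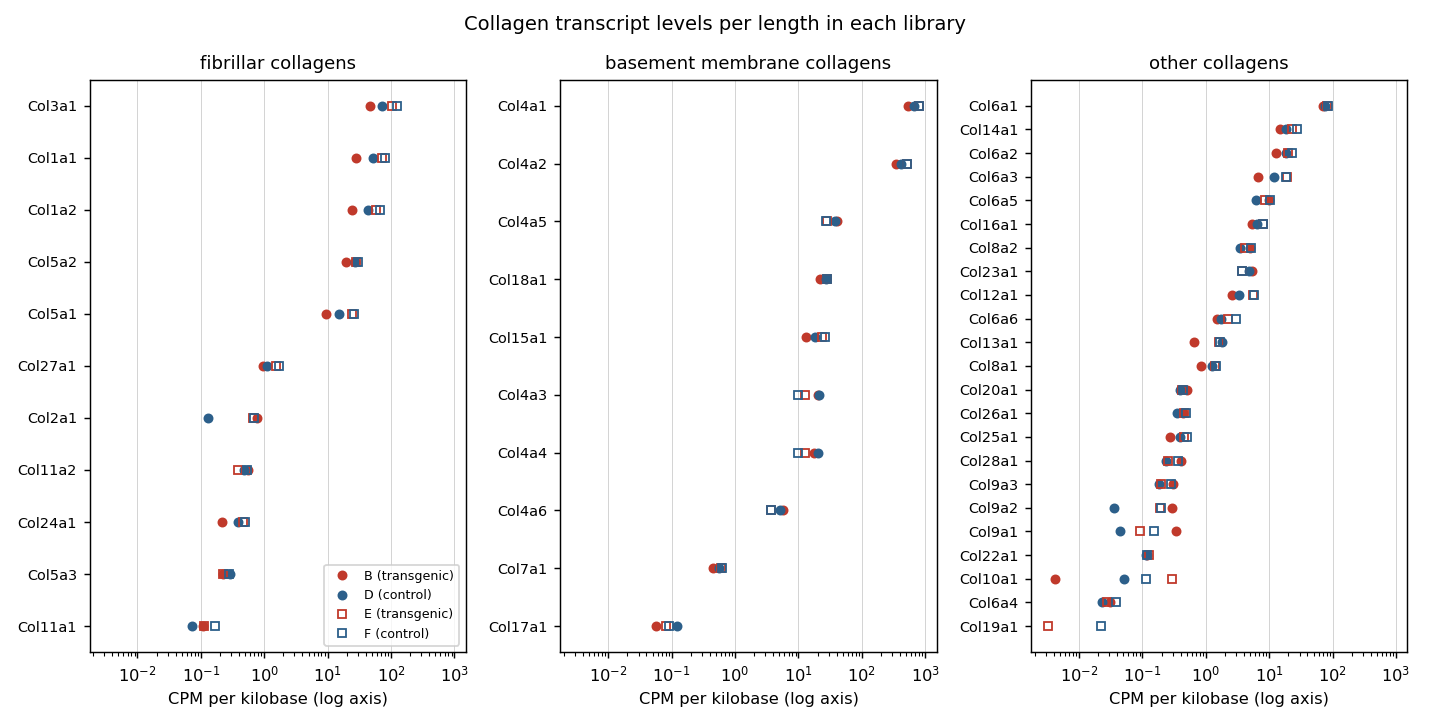
Level of each of the 44 collagen genes in CPM per kilobase (x axis, logarithmic) in each library, with transgenic libraries in red, controls in blue, B and D filled, E and F open. Libraries with 0 counts have no point. Col4a1 and Col4a2 stand apart at the top of the basement membrane panel, and red and blue points are mixed in nearly every row.

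Among the fibrillar genes, types I and III were lowest in transgenic library B and highest in control library F, with the other transgenic and control libraries between them. Col1a1 (chromosome 11, 94936224 to 94953042, GRCm38), which encodes chain 1 of type I, stood at 181 CPM in B and 471 in E, against 336 in D and 533 in F. The transgenic value of B was the lowest and that of E lay above control D, so the groups overlapped. Transgenic libraries averaged 326 ± 205 CPM and controls 435 ± 139 CPM (SD, n = 2 each), with a log2 fold change of -0.41 (SE 0.49). Single ratios of a transgenic to a control library ran from 0.34 to 1.4.

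Col1a2 (chromosome 6, 4504814 to 4541543), encoding the partner chain of type I, stood at 294 and 695 CPM in B and E and 521 and 820 CPM in D and F, a log2 fold change of -0.44 (SE 0.46). Col3a1 (chromosome 1, 45311538 to 45349706), the single chain of type III, stood at 453 and 1020 CPM in B and E and 717 and 1197 CPM in D and F, a log2 fold change of -0.38 (SE 0.45). All 3 genes thus had the same order of libraries, and without library B their log2 fold changes were 0.12, 0.05 and 0.10. Their control libraries alone differed by 1.58-fold, 1.57-fold and 1.67-fold (F over D), and their transgenic libraries by 2.60-fold, 2.37-fold and 2.25-fold (E over B).

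Type V chains, which help start type I fibrils, parted from each other. Col5a1 stood at 79.7 and 205 CPM in B and E and 129 and 225 CPM in D and F, a log2 fold change of -0.32 (SE 0.50). Col5a2 stood at 187 and 273 CPM in B and E and 260 and 284 CPM in D and F, a log2 fold change of -0.24 (SE 0.21). B was the lowest for both, but F over B was 2.82-fold for Col5a1 and 1.52-fold for Col5a2. Col5a3, the scarce alternative chain, stood at 1.55 and 1.5 CPM in B and E and 1.95 and 1.91 CPM in D and F. It was the fibrillar gene whose groups did not overlap, with means of 1.52 ± 0.0339 and 1.93 ± 0.0245 CPM (SD, n = 2 each), yet its test gave an adjusted p of 1 (edgeR, log2 fold change -0.34, SE 0.22).

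The remaining fibrillar genes were scarce. Col27a1 stood at 12.4 and 20.1 CPM in B and E and 14.4 and 22.4 CPM in D and F, a log2 fold change of -0.18 (SE 0.31). Type XI, a minor fibrillar type best known from cartilage, had Col11a2 at 3.73 and 2.65 CPM in B and E and 3.26 and 3.65 CPM in D and F and Col11a1 at 1.05, 1.08, 0.707 and 1.61 CPM in the same order. Col24a1 lay between 1.65 and 3.82 CPM and Col2a1, the type II gene of cartilage, between 0.794 and 4.63 CPM. Of the 11 fibrillar genes, 10 had a log2 fold change below 0, with a median of -0.32, and 0 passed the test. Over all genes tested, 50.4% were below 0. Without library B the fibrillar median was 0.08.

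Among the basement membrane genes, type IV chains 1 and 2 were also lowest in B, with a smaller range than types I and III. Col4a1 (chromosome 8, 11198423 to 11312826) stood at 3634 and 5510 CPM in B and E and 4459 and 5517 CPM in D and F, a log2 fold change of -0.13 (SE 0.30). Col4a2 (chromosome 8, 11312805 to 11449287) stood at 2260 and 3458 CPM in B and E and 2793 and 3451 CPM in D and F, a log2 fold change of -0.13 (SE 0.28). E and F were nearly level for both genes, and the groups overlapped.

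Chains 3 to 6 ran the other way. Col4a3 (chromosome 1, 82586921 to 82722059) stood at 205 and 128 CPM in B and E and 212 and 96.9 CPM in D and F. Col4a4, its head-to-head neighbour, stood at 189 and 136 CPM in B and E and 219 and 103 CPM in D and F. Libraries B and D were high and E and F low for both, so each genotype held 1 high and 1 low library. Their log2 fold changes were 0.11 (SE 0.42) and 0.01 (SE 0.38). Between the controls, F over D was 0.458 for Col4a3 and 0.471 for Col4a4.

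Col4a5, the X-linked chain that joins chains 3 and 4, stood at 276 and 188 CPM in B and E and 254 and 185 CPM in D and F, a log2 fold change of 0.08 (SE 0.25). Col4a6, which joins chain 5 in a further network, stood at 45.7 and 29.4 CPM in B and E and 41.1 and 29.5 CPM in D and F, a log2 fold change of 0.09 (SE 0.27). Both were high in B and D and low in E and F, as chains 3 and 4 were. The summed level of chains 3 to 6 was 715 and 725 CPM in B and D and 481 and 415 CPM in E and F, while that of chains 1 and 2 was 5894, 7252, 8967 and 8968 CPM.

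Types XV and XVIII, whose C-terminal ends yield endostatin and its relative, sit where basement membrane meets connective tissue. Col15a1 stood at 82.5 and 151 CPM in B and E and 117 and 166 CPM in D and F, a log2 fold change of -0.28 (SE 0.33). Col18a1 stood at 154 and 195 CPM in B and E and 190 and 198 CPM in D and F, a log2 fold change of -0.15 (SE 0.15). Both were lowest in B and highest in F. Col7a1, the anchoring fibril gene of skin and other stratified epithelia, stood at 4.58 and 6.16 CPM in B and E and 5.68 and 6.39 CPM in D and F. Col17a1, a hemidesmosome gene of basal cells, had 25 and 41 counts in B and E and 56 and 45 in D and F. Col17a1 was lower in both transgenic libraries, a log2 fold change of -0.62 (SE 0.37), but its values of 0.331, 0.463, 0.695 and 0.528 CPM rest on those few counts. Markers of basal cells were as scarce, with 5 genes summing to 1.05 and 1.56 CPM in B and E and 2.33 and 1.80 CPM in D and F. Of the 4 tested, only Krt5 ran the other way, with 14 and 27 counts in B and E and 2 and 4 in D and F. The other 3 had log2 fold changes below 0, and 0 of the 4 were called. Trp63 had 5 and 10 counts in B and E and 24 and 21 in D and F. Ngfr had 29 and 74 counts in B and E and 93 and 96 in D and F. Both genes were lower in both transgenic libraries, as 12% of all genes were. The part of basal cells in the Col17a1 values was not tested. Over the 10 basement membrane genes the median log2 fold change was -0.13, with 4 above and 6 below 0, and 0 passed.

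Type VI, a beaded microfibril around cells, was the most abundant of the other types. Col6a1 stood at 305 and 352 CPM in B and E and 334 and 367 CPM in D and F, a log2 fold change of -0.09 (SE 0.14), the narrowest interval of any member, from -0.45 to 0.26. Col6a2 stood at 107 and 167 CPM in B and E and 154 and 189 CPM in D and F, a log2 fold change of -0.32 (SE 0.24). Col6a3, the chain that completes the classical type VI trimer, stood at 79.3 and 231 CPM in B and E and 142 and 222 CPM in D and F, a log2 fold change of -0.23 (SE 0.53). All 3 were lowest in B, but the transgenic libraries E and B differed by 1.15-fold for Col6a1 and 2.91-fold for Col6a3.

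The alternative type VI chains lie next to each other on chromosome 9 and differed in order. Col6a5 stood at 94.1 and 81.9 CPM in B and E and 58.2 and 97.7 CPM in D and F, with control D the lowest, a log2 fold change of 0.17 (SE 0.26). Col6a6 stood at 13.8 and 20.8 CPM in B and E and 15.8 and 27.1 CPM in D and F, a log2 fold change of -0.31 (SE 0.32). Col6a4 had 20 and 21 counts in B and E and 16 and 28 in D and F.

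Fibril-associated types, which coat fibrils and link them to the matrix, differed in order. The 3 abundant ones followed types I and III. Col14a1 stood at 105 and 162 CPM in B and E and 127 and 193 CPM in D and F, a log2 fold change of -0.26 (SE 0.29). Col12a1 stood at 38.6 and 84.3 CPM in B and E and 50.2 and 86.9 CPM in D and F, a log2 fold change of -0.16 (SE 0.44). Col16a1 stood at 36.4 and 52.9 CPM in B and E and 43.8 and 53.9 CPM in D and F, a log2 fold change of -0.13 (SE 0.21). In all 3 genes B was the lowest and E lay above D, so none separated the genotypes. The 5 scarce ones tested, Col9a1, Col9a2, Col9a3, Col20a1 and Col22a1, were all lowest in D, a share that was not taken over all genes. For Col22a1, at 1.03 CPM in D and 1.07 in B, the step is too small to be read as an order. The same holds for Col9a3, at 0.707 CPM in D and 0.756 in E.

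Type VIII, a short-chain network collagen of vessels, had 2 chains of different pattern. Col8a2 stood at 22.5 and 18.7 CPM in B and E and 15.3 and 23.5 CPM in D and F, a log2 fold change of 0.08 (SE 0.24), and Col8a1 at 4.34, 7.13, 6.43 and 7.41 CPM, a log2 fold change of -0.27 (SE 0.28). Col8a2 was lowest in D and Col8a1 in B.

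The membrane-spanning types also went apart. Col23a1 stood at 31.1 and 21.4 CPM in B and E and 27.7 and 21.0 CPM in D and F, a log2 fold change of 0.11 (SE 0.23), high in B and D like type IV chains 3 to 6. Col13a1 stood at 3.03 and 7.49 CPM in B and E and 8.19 and 7.76 CPM in D and F. It was lower in both transgenic libraries, a log2 fold change of -0.60 (SE 0.43), but E lay at 0.966 of the nearest control, so the difference came from library B: without B the log2 fold change was -0.09.

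The 16 tested members averaging under 5 CPM, of the types II, V (chain 3), VI (chain 4), IX, X, XI, XVII, XX, XXII, XXIV, XXV, XXVI and XXVIII, had library values from 0.0132 to 4.63 CPM and log2 fold changes from -0.62 to 1.11. Col10a1, the hypertrophic cartilage type, had 1 and 80 counts in B and E and 13 and 30 in D and F. Col19a1 was not tested: it had 0 counts in B and D, 2 in E and 13 in F, and a count of 0 allows up to 3 counts, or 0.0394 CPM in B and 0.0371 in D. Over the 22 other collagen genes tested, 11 log2 fold changes were above and 11 below 0, with a median of 0.00.

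Many collagen genes shared an order of libraries that alternates genotypes, an order picked after its values were seen. Of the 43 tested, 19 stood in the order B, D, E, F from lowest to highest, as did 12.2% of all genes tested, and 2, Col4a5 and Col23a1, stood in the reverse order, as did 10.1% of all genes. B and E are transgenic and D and F controls. The main axis of variation over all genes tested (first principal component, 54.1% of the variance) placed the libraries in that order too. Their positions on it were -53.4 for B, -4.19 for D, 27 for E and 30.6 for F, so the order is not particular to collagen genes. For Col4a1 the step from E to F was 5510 to 5517 CPM, too small to be read as an order. Of the 27 members averaging at least 5 CPM, 20 were lowest in B, and those that were not were Col4a3 to Col4a6, Col6a5, Col8a2 and Col23a1. Of all 43 members tested, 24 were lowest in B, which is 55.8%, where 33.9% of all genes tested were. The share among all genes averaging at least 5 CPM was not taken.

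**Figure D3:**
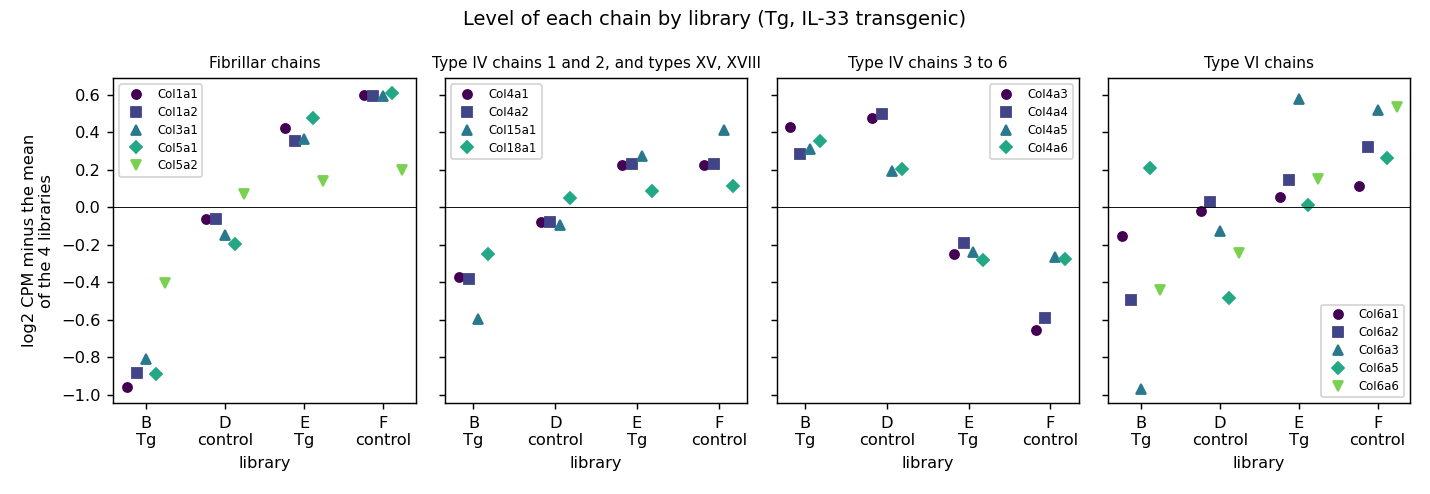
Log2 CPM of each chain minus its mean over the 4 libraries (y axis) by library, in 4 panels by type. Fibrillar chains and type IV chains 1 and 2 are lowest in transgenic library B and highest in E and F, whereas type IV chains 3 to 6 are highest in B and D, and neither pattern parts transgenic from control.

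Some lists of cell type markers moved with these patterns and others did not. The 8 smooth muscle and pericyte markers summed to 833 and 1038 CPM in B and D and 1451 and 1667 CPM in E and F, and the 8 endothelial markers to 4656, 5905, 7444 and 8243 CPM, the order of the fibrillar genes. The 8 fibroblast markers summed to 401 and 583 CPM in B and D and 514 and 521 CPM in E and F, with 4 of the 8, Gpx3, Dpt, Mfap4 and Tcf21, below both controls in B and in E (12% of all genes were), and 0 of 8 called. In each of those 4, B lay below E, and for Tcf21 E at 10.2 CPM was close to control F at 10.5. Inmt, Pdgfra and Pi16 stood below both controls in B but above both in E, and Npnt lay between the controls in B and in E. Mfap4, a microfibril-associated gene, stood at 63.2, 168, 159 and 185 CPM. The alveolar type 2 markers summed to 57916, 47935, 38070 and 34708 CPM in B, D, E and F. The alveolar type 1 gene Ager stood at 1185 CPM in B and 1192 in D but 685 in E and 606 in F, high and low in the same libraries as type IV chains 3 to 6. Akap5, Hopx, Aqp5, Pdpn and Rtkn2 were likewise higher in B and D than in E and F, whereas Emp2 and Cav1 were lowest in B. The whole list of 8 alveolar type 1 markers summed to 3763, 4153, 3252 and 3355 CPM in B, D, E and F. None of the genes in these 5 lists was without counts. The 4 mesothelial markers summed to 131 and 182 CPM in B and D and 67.4 and 54.8 CPM in E and F, and the 5 airway markers to 11205 and 9466 and to 7202 and 7243 CPM. The part of cell make-up in the collagen values was not tested.

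Ratios between 2 chains of 1 library do not depend on library scaling, and some were nearly constant. Col4a1 over Col4a2, per length, was 1.56 and 1.55 in B and D and 1.55 and 1.55 in E and F, a range of 0.939% although each gene varied about 1.52-fold and 1.53-fold between B and F. Col4a5 over Col4a6 was 7.16 and 7.32 in B and D and 7.57 and 7.46 in E and F. Col1a1 over Col1a2 was 1.14, 1.19, 1.25 and 1.20 in B, D, E and F, which can be set beside the 2 chains of one kind and 1 of the other in the type I trimer, though RNA per length is not protein. Col4a3 over Col4a4 was 1.15 and 1.03 in B and D and 1 and 0.999 in E and F.

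Other ratios differed more. Col4a3 over Col4a1 was 0.0386 and 0.0324 in B and D and 0.0159 and 0.0120 in E and F, a 3.21-fold range, so the genes of the 2 type IV networks differed between libraries by unequal factors. Col4a5 over Col4a1 ran from 0.0770 in B to 0.0341 in F. Col5a1 over Col5a2 was 0.482 and 0.561 in B and D and 0.848 and 0.896 in E and F. Col6a3 over Col6a1 was 0.0952 and 0.156 in B and D and 0.241 and 0.221 in E and F. For each of the 16 ratios computed, the transgenic and control values overlapped, so none parted the genotypes.

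**Figure D4:**
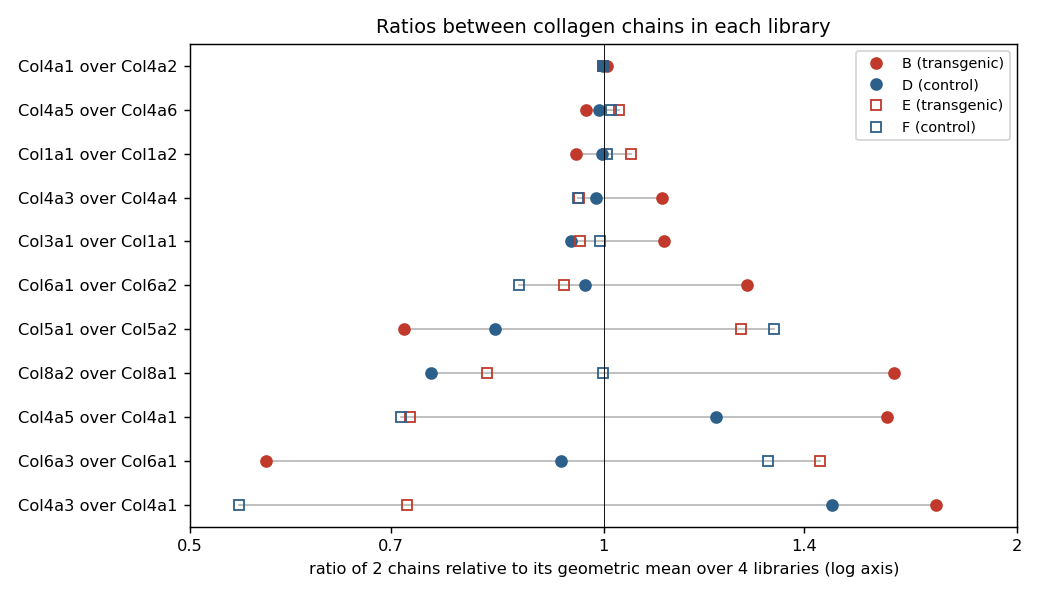
Per-length ratio of 2 collagen chains in each library, divided by its geometric mean over the 4 libraries (x axis, logarithmic), with transgenic libraries in red, controls in blue, B and D filled, E and F open. Col4a1 over Col4a2 falls on 1 spot, and Col4a3 over Col4a1 spreads 3.21-fold with both genotypes at either end.

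Genes that make, trim, crosslink and bind collagen were read in the same fit. Of 67 genes in 6 lists, 0 passed the test and 0 had an unadjusted p under 0.05 (edgeR). Log2 fold changes were below 0 for 56 and above 0 for 11, with a median of -0.15, and 45 of the 67 were lowest in library B. Over all genes tested 50.4% were below 0 and 33.9% lowest in B. The groups were separated upward for 3 and downward for 7, where 11.9% and 12% of all genes were.

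Of 18 genes for chain modification and folding, 15 had a value below 0 (median -0.11). Crtap, part of the prolyl 3-hydroxylase complex, stood at 32.2 and 40.7 CPM in B and E and 42.4 and 43.8 CPM in D and F, a log2 fold change of -0.24 (SE 0.14). P4ha3, a prolyl 4-hydroxylase subunit, had a log2 fold change of -0.25 (SE 0.15). Of 14 processing and crosslinking genes, 13 were below 0 (median -0.20). The smallest p were those of Pcolce2, a procollagen C-proteinase enhancer (-0.66, SE 0.45), and of the lysyl oxidase family gene Loxl4, which was above 0 (0.36, SE 0.25). Of 8 fibril-associated proteoglycan genes, 7 were below 0 (median -0.28). The smallest p were those of Fmod, encoding fibromodulin (-0.26, SE 0.15), and Dcn, encoding decorin (-0.21, SE 0.16), although Bgn, encoding biglycan, had a lower value (-0.37, SE 0.43).

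Of 8 basement membrane partner genes, 6 were below 0 (median -0.10), and the smallest p were those of Agrn, encoding agrin (-0.12, SE 0.15), and Nid2, encoding nidogen 2, which links laminin to type IV (-0.18, SE 0.24). Of 11 receptor and uptake genes, 8 were below 0 (median -0.03). Lair1, a collagen receptor of leukocytes, stood at 0.927 and 1.70 CPM in B and E and 0.422 and 0.916 CPM in D and F, a log2 fold change of 0.98 (SE 0.51), and Itgb1, the integrin chain shared by collagen receptors, had -0.15 (SE 0.20). All 6 leukocyte markers had values above 0, 4 with separated groups (11.9% of all genes were so separated) and 0 called, and they summed to 34.9 and 52.0 CPM in B and E and 16.8 and 30.9 CPM in D and F, and their part in the Lair1 values was not tested. Of 8 genes of the TGF-beta axis, which drives collagen synthesis in fibroblasts, 7 were below 0 (median -0.19). The ligand gene Tgfb2 stood at 53.5 and 66.5 CPM in B and E and 72.1 and 66.1 CPM in D and F, a log2 fold change of -0.20 (SE 0.14).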

How the data were processed

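The reads went through featureCounts (version 1), Bowtie (version 1) and TopHat2 (version 2), on a build called GRCm38 or mm10, per the submitters' processing notes. No label states the annotation release, strand setting or multi-mapping rule, so reads in the Col4a1 and Col4a2 overlap and of antisense genes could be shared. The authors deposited raw counts per gene and an RPKM value beside each. The deposited RPKM served only as an alternative for levels per length, with the deposited gene length.

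The 20872 genes left by filterByExpr (minimum count 10, minimum total 15) were scaled by TMM and tested with edgeR 4.0.16 (R 4.3.3; quasi-likelihood, legacy setting, Benjamini-Hochberg), 2 libraries per group, no covariate. SE is the log2 fold change over the square root of F, and 95% intervals use it. The fit was also run on simulated counts with the same spread for every gene. That run does not show how the fit behaves at the spread of these libraries. Symbols matched 42462 of the 43346 identifiers. Every 2 libraries differed by more than sampling noise (chi-square per gene 18.1 or more).

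Members and lists were chosen with earlier results of these data known. Values in every library are given for members averaging at least 5 CPM, those with separated groups and chain partners. The 2 leading genes by p of each pathway list are named, except 1 that is not reported here. Others (Krt5, Trp63, Ngfr, Bgn, Mfap4, Ager, Pecam1, Acta2, Col10a1, Col2a1, Col24a1, Col9a1, Col9a2, Col9a3, Sox9, Acan, Matn3, Sftpc) were chosen after their values were seen. So were the further fibroblast and alveolar type 1 markers that are named singly, and Col20a1, Col22a1, Col26a1 and Col28a1. Alternatives were upper-quartile or DESeq2 scaling, a stricter filter or none, each library left out, the fit without the legacy setting, DESeq2 1.42.0, limma-voom (limma 3.58.1), a term parting B and D from the other libraries, and the Y-linked share.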

Additional observations from a re-analysis of the deposited data

How the results depend on the processing

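No collagen gene was called under any alternative run (0 in each; smallest adjusted p of a member 0.306, without library E), and in the whole table DESeq2 called 1 gene, and edgeR 2 without B, 15 without E and 5 without F. Most directions rested on single libraries. With each library left out in turn, the fibrillar median ran from -0.57 (without E) to 0.08 (without B) and that of the other collagens from -0.19 to 0.20, and members separated upward numbered 4 to 12 and downward 4 to 28 (of all genes, 27.3% to 35.7% and 27.1% to 38.6%, since 3 libraries part more easily, and the lone library is assumed to vary like the other group). Of the 32 genes followed, 28 turned direction in at least 1 such fit, 23 of them without B and 17 without F. The lowest and highest log2 fold changes with 1 library left out were: Col1a1 -1.27 to 0.12, Col1a2 -1.20 to 0.05, Col3a1 -1.09 to 0.10, Col4a1 -0.47 to 0.15, Col4a2 -0.48 to 0.15, Col4a3 -0.35 to 0.78, Col4a4 -0.43 to 0.65, Col4a5 -0.23 to 0.32, Col4a6 -0.26 to 0.36, Col5a1 -1.16 to 0.21, Col5a2 -0.55 to 0.01, Col6a1 -0.21 to 0.01, Col6a3 -1.21 to 0.35, Col6a4 -0.39 to 0.33, Col6a5 -0.15 to 0.60, Col6a6 -0.65 to 0.13, Col7a1 -0.41 to 0.03, Col8a1 -0.68 to 0.05, Col8a2 -0.19 to 0.43, Col11a1 -0.59 to 0.59, Col11a2 -0.38 to 0.10, Col12a1 -0.84 to 0.30, Col14a1 -0.62 to 0.07, Col15a1 -0.79 to 0.09, Col16a1 -0.43 to 0.12, Col18a1 -0.34 to 0.01, Col23a1 -0.18 to 0.34, Col27a1 -0.57 to 0.18. The median of the other collagens, 0.00, was -0.00 with upper-quartile factors, -0.08 with no filter, -0.12 with the stricter filter and -0.07 with limma-voom. With the Y-linked share added to the model, it was -0.65 and the fibrillar median was -0.95. Col6a5 (-0.78) and Col8a2 (-0.74) turned, and Col4a3 and Col4a4 were at 1.54 and 1.42. The Y-linked share itself parts transgenic from control libraries, so with so few libraries this fit can hardly tell it from genotype. Its values are not to be read as corrected effects, and their cause was not tested. With a term parting B and D from the other libraries, a split known from the data, 0 of the followed genes turned and the smallest adjusted p of a member was 0.799. The other scaling and test alternatives turned 0 of them. That split coincides with replicate numbers given here in accession order, which pair no samples: the labels name no replicate or shared animal. With 2 libraries per group, the intervals, not depth, limit what can be seen in the abundant chains.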

Other observations

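Col2a1, Col9a1 and Col9a2, collagens known from cartilage, were lowest in control library D. Col2a1, the type II gene, had 350 counts in B, 349 in E and 355 in F but 64 in D. Col9a1 and Col9a2, chains of type IX, which coats type II fibrils, had 18 and 9 counts in D, against 41 to 130 and 51 to 69 in the other libraries. Their log2 fold changes of 0.79 (SE 0.73), 1.11 (SE 0.84) and 1.05 (SE 0.77) go with D as the lowest library for each, and 0 of the 3 passed the edgeR test (adjusted p = 1 for each). Col9a3 stood less apart, at 57 counts in D, 87 in B, 67 in E and 91 in F. The other cartilage types did not all share this: Col11a1 was lowest in D too, but Col11a2 was lowest in E and Col10a1 in B. Members of further types were lowest in D as well: Col6a4, Col6a5, Col8a2, Col20a1, Col22a1, Col26a1 and Col28a1. The share of all genes lowest in D was not taken. The 8 cartilage markers summed to 56.7 and 43.8 CPM in B and D and 41.4 and 36.6 CPM in E and F. Most of that was Sox9 (43.9, 33.5, 32.9 and 27.0 CPM), which airway epithelium also expresses, and Matn1 had 0 counts in every library. Of the 5 markers tested, 3 had log2 fold changes above 0 and 2 below, and 0 were called. Acan had 152 and 103 counts in B and E and 63 and 68 in D and F. Matn3 was highest in D, with 50 counts, against 31 in B, 32 in E and 39 in F.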
